A study of Homo sapiens with 4 samples.

Results

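The genes described here are 50 genes of the mitotic spindle, the kinetochore and the mitotic checkpoints, measured in THP1 cells that received a miR-511 mimic or a control mimic. They were taken by name from the probe annotation of the arrays, from a list made with earlier results of these data known, and are 50 of the 27193 gene names and identifiers with a probe. They carry 63 of the 34127 non-control probes, 38 genes with 1 probe, 11 with 2 and CENPN with 3. All 63 probes were well above background on all 4 arrays and all 50 genes were tested, among 18001 gene names that passed the filter on dim probes. THP1 is a cell line from human acute myeloid leukemia of monoblastic type, and a miRNA mimic is a short double-stranded RNA made to act as the mature miRNA once inside cells. The groups were THP1 cells transfected once with 30 nM of a hsa-miR-511-5p mimic and THP1 cells transfected once with 30 nM of negative control #1 mimic, both cultured in medium of low serum content until RNA was harvested on day 2. Each of 2 independent experiments gave 1 array of each treatment, so that there were 2 arrays per treatment. Both groups were transfected cells of 1 cell line, and no untransfected cells were analysed here.

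Mitosis divides the duplicated chromosomes. Kinases of the Aurora, Polo and CDK families drive entry, kinetochores built on the centromeres bind spindle microtubules, and the spindle assembly checkpoint holds the anaphase promoting complex inactive until every chromosome is attached. Many of these genes are transcribed in G2 and M phase from promoters with a cell cycle homology region (CHR) and CCAAT boxes, where FOXM1, B-MYB and NF-Y act, and their transcript levels in a culture are widely used as a sign of how many cells divide. In RNA from whole cultures, fewer cells in G2 and M phase and less of these transcripts per cell cannot be told apart.

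The treatment supplied a miRNA of 21 nucleotides, encoded on the plus strand at chr10:17845122-17845142 (GRCh38.p14, RefSeq). It is shown because a miRNA finds its targets mainly through the seed, bases 2 to 8, here in capitals. Target sites in the transcripts of the 50 genes were not analysed here.
hsa-miR-511-5p: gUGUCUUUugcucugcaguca

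Values are log2 spot intensities after quantile normalization between the arrays, and a difference of 1 is a doubling. For a gene with several probes, the probe with the highest mean is given unless another is named. The brightness of different probes depends on the probes themselves, so that each gene was compared with itself between arrays and not with other genes. Between 64.8% and 69.3% of all probes per array were well above background, and no spot was saturated. The lowest value of any of these genes was 6.84 at its brightest probe, against 2.98 to 3.44 for the dimmest probe well above background on each array. All arrays lay on 1 slide. Of 10 marker genes of monoblastic cells 8 were well above background on all arrays, among them CD33, MPO, ELANE and SPI1, while MEIS1 was so on at most 2 arrays and no probe carried the name LYZ. Of the markers of other cell types reported here, MS4A1, COL1A1 and EPCAM were well above background on 0 arrays, CD3E was on 3 arrays and CD3D on all 4. The part of such signal in the results was not tested.

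No mitotic gene passed an unadjusted p below 0.05 in limma between miR-511 and control mimic. The study set this threshold together with a further test over identical replicate probes, which was not applied here. This was 0 of 50 genes, beside 2.12% of all 18001 genes at the brightest probe and 2.2% of all 22638 tested probes. After Benjamini-Hochberg adjustment 0 of the 50 genes and 0% of all genes passed, and the adjusted p of every mitotic gene was 1.00. The smallest unadjusted p among them was 0.0703, that of SGOL1. After normexp background correction CASC5, SGOL1 and TPX2 passed the unadjusted threshold, as did 1.17% of all tested probes. In a plain equal-variance test of each averaged probe SMC4 and TPX2 passed it, as did 3.13% of all tested probes. The median difference, miR-511 minus control mimic, was 0.062 on the log2 scale, or 4.42%, against a median of 0.010 over all tested genes. The difference was above 0 for 42 of the 50 genes and for 54.1% of all genes. In experiment 1 the median ratio was 0.090 and 42 genes were above 0 (58.4% of all genes). In experiment 2 it was 0.023 and 32 genes were above 0 (49.6% of all genes). The ratio was above 0 in both experiments for 26 genes (29.9% of all genes) and below 0 in both for CENPF and SPC24 (21.8% of all genes for this order). Across the 50 genes the ratios of the 2 experiments had a Pearson correlation of -0.026, which is a description across genes measured on the same 4 arrays.

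For a single gene, the smallest p of an exact two-sided permutation test with 2 arrays per treatment is 0.333. The standard errors of the treatment differences from limma were 0.088 to 0.17, with a median of 0.11. The fit had no term for the experiment, so that these errors include differences between the experiments. The 95% interval of a mitotic gene reached 0.24 to 0.47 to either side, with a median of 0.31 that corresponds to 1.24-fold. The median of the 50 differences depended on single arrays. It was -0.015 without control mimic replicate 1, with 19 genes above 0, and 0.013 without miR-511 mimic replicate 2, with 27 genes above 0. It was 0.10 without miR-511 mimic replicate 1 and 0.14 without control mimic replicate 2.

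**Figure D1:**
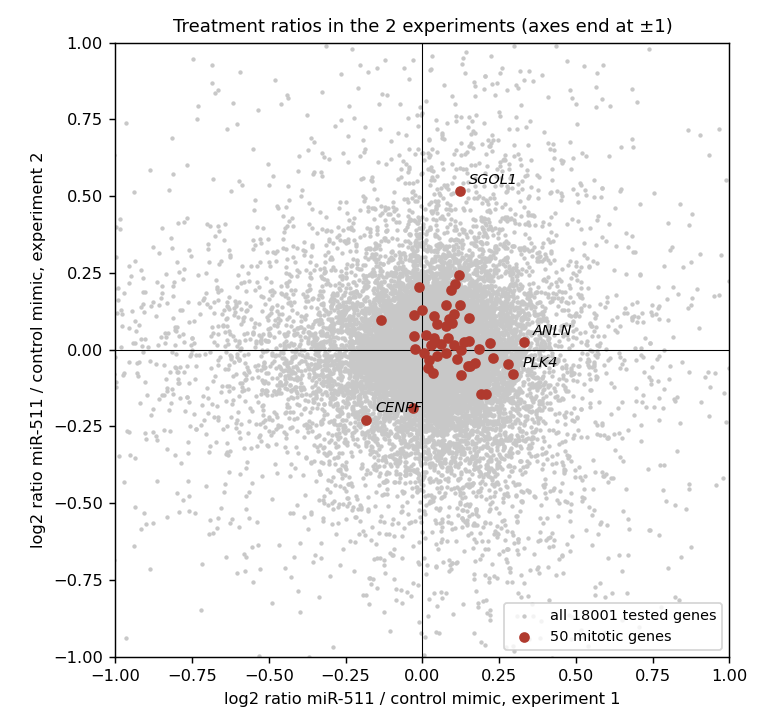
Log2 ratio of miR-511 to control mimic in experiment 1 (horizontal axis) and in experiment 2 (vertical axis) for the 50 mitotic genes (red) and all 18001 tested genes at the brightest probe (grey). The red points lie near the origin, 26 of them to the upper right, with SGOL1 highest on the vertical axis. Axes end at 1 on either side, and 540 grey points lie outside.

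SGOL1, now named SGO1, encodes shugoshin, which protects centromeric cohesion until anaphase. Its values were 9.32 with miR-511 and 9.19 with control mimic in experiment 1, and 9.49 and 8.97 in experiment 2. Both miR-511 arrays lay above both control arrays, and the control array of experiment 2 was the lowest. The means were 9.40 ± 0.12 (SD, n = 2) and 9.08 ± 0.16 (SD, n = 2), and the difference of 0.32 (standard error 0.13) had the largest size among the 50 genes. The ratio was 0.12 in experiment 1 and 0.52 in experiment 2. A second SGOL1 probe, on chromosome 3 of hg19 from 20202306 to 20202365 where the first lies from 20212615 to 20212674, gave 7.48 and 7.45 in experiment 1 and 7.66 and 7.69 in experiment 2. Its treatment difference was -0.0035, so that the 2 probes of SGOL1 did not show the same ratio.

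CENPF, a large coiled-coil protein of the outer kinetochore that accumulates in G2, was the only gene with both miR-511 arrays below both control arrays (10.1% of all genes). Its values were 14.58 with miR-511 and 14.77 with control mimic in experiment 1, and 14.76 and 14.99 in experiment 2. The difference was -0.21 (standard error 0.13), with -0.18 and -0.23 in experiments 1 and 2. The second CENPF probe had 9.79 and 9.90 in experiment 1 and 9.93 and 9.52 in experiment 2, a difference of 0.15 with opposite signs in the 2 experiments.

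Both miR-511 arrays lay above both control arrays for 10 of the 50 genes, an order that 15.7% of all tested genes had. These were SGOL1, ESPL1, CENPH, CENPI, CASC5, TPX2, HMMR, ANLN, ECT2 and SMC4. ECT2, the exchange factor that activates RhoA for the cleavage furrow, had 9.59 against 9.47 in experiment 1 and 9.75 against 9.51 in experiment 2, a difference of 0.18 (standard error 0.11). ANLN, the anillin scaffold of the contractile ring, had 11.37 against 11.04 and 11.17 against 11.14. Its difference was also 0.18 (standard error 0.12), and the ratio of 0.33 in experiment 1 stood beside 0.025 in experiment 2. HMMR, a microtubule-associated protein of the spindle poles, had 13.45 against 13.35 and 13.42 against 13.20, with a difference of 0.16 (standard error 0.10). For SMC4, a core subunit of condensin, the values were 12.88 against 12.78 and 12.88 against 12.76, so that each treatment repeated within 0.015 between the experiments. The difference of 0.11 at this probe had a standard error of 0.088, and the second SMC4 probe had -0.038.

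**Figure D2:**
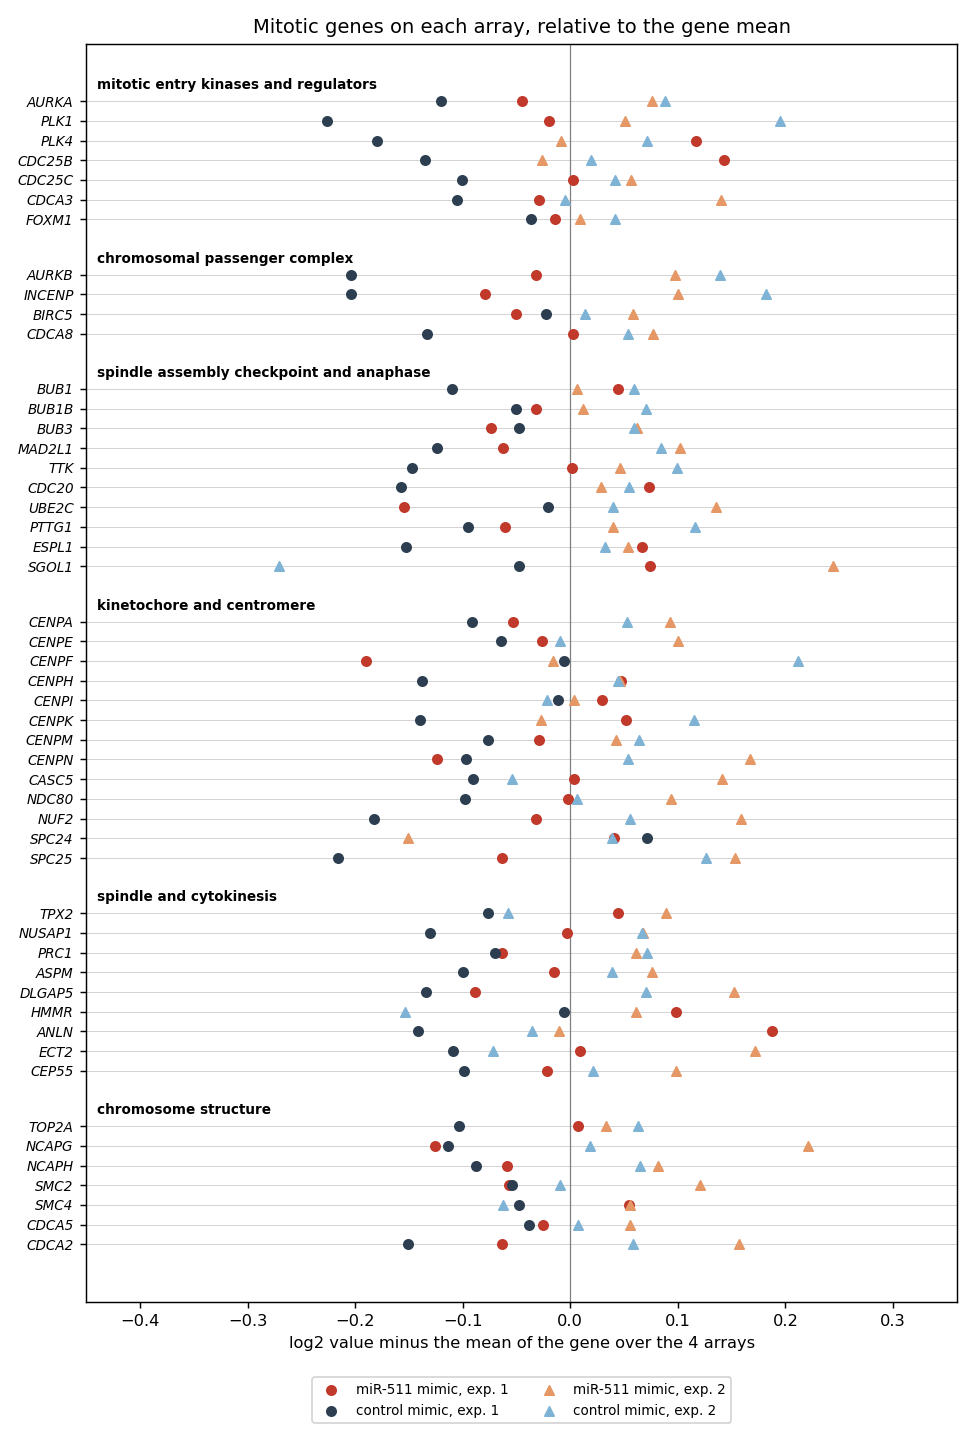
Log2 value of each of the 50 mitotic genes on each of the 4 arrays, minus the mean of the gene over the arrays (horizontal axis), with genes in rows by role. Circles are experiment 1, triangles experiment 2, red and orange miR-511 mimic, dark and light blue control mimic. The control array of experiment 1 (dark circles) is the lowest for 38 of the 50 genes.

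The kinases and regulators of mitotic entry were 7 genes. Their treatment differences had a median of 0.059 and lay between -0.0056 and 0.12, none past the threshold. All 7 had a ratio above 0 in experiment 1, with a median of 0.10, and 2 had one above 0 in experiment 2, where the median was -0.033. PLK1, the Polo kinase of centrosome maturation and mitotic progression, had 11.20 with miR-511 and 10.99 with control mimic in experiment 1 and 11.27 and 11.42 in experiment 2. PLK4, which starts centriole duplication, had 8.84 and 8.54, then 8.71 and 8.79. For CDC25B, a phosphatase that activates CDK1 at mitotic entry, the ratio was 0.28 in experiment 1 and -0.046 in experiment 2. AURKA, the Aurora kinase of the spindle poles, the phosphatase CDC25C, and FOXM1, the transcription factor of G2 and M phase genes, had ratios between -0.033 and 0.10 in both experiments. CDCA3, which targets the kinase WEE1 for degradation, was above 0 in both, with 0.076 and 0.15.

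The chromosomal passenger complex corrects wrong attachments at the centromere and later acts at the midzone. It consists of the kinase AURKB, the scaffold INCENP, survivin (BIRC5) and borealin (CDCA8), and all 4 genes had treatment differences above 0, from 0.0083 to 0.080. AURKB and INCENP had ratios of 0.17 and 0.12 in experiment 1 and of -0.042 and -0.081 in experiment 2. BIRC5 had 14.86 and 14.89 in experiment 1 and 14.97 and 14.92 in experiment 2, which spans 0.11 over the 4 arrays. CDCA8 had 0.14 and 0.024.

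Of the 10 genes of the spindle assembly checkpoint and of anaphase, 6 had a treatment difference above 0, with a median of 0.044. The checkpoint kinases BUB1 and TTK and the checkpoint proteins BUB1B, BUB3 and MAD2L1, which keep CDC20 from activating the anaphase promoting complex, lay between -0.020 and 0.051. CDC20, the activator itself, had 13.03 and 12.80 in experiment 1 and 12.99 and 13.02 in experiment 2. UBE2C, the ubiquitin-conjugating enzyme of that complex, had 13.16 and 13.29, then 13.45 and 13.35, with the miR-511 array lowest of the 4 in experiment 1 and highest in experiment 2. PTTG1 (securin), which inhibits separase, had 15.08 and 15.05, then 15.18 and 15.26. For ESPL1, separase, which cleaves cohesin, the values were 12.62 and 12.40 in experiment 1 and 12.60 and 12.58 in experiment 2.

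The kinetochore and centromere genes were 13. Their median treatment difference was 0.044, with 11 above 0 and the range from -0.21 for CENPF to 0.14 for CASC5. CENPA, the histone H3 variant that marks centromeres, repeated its ratio within 0.01 between the experiments, with 0.038 and 0.039. CENPH, CENPI, CENPK, CENPM and CENPN belong to the inner kinetochore network on CENPA chromatin and had differences from 0.013 to 0.093. CENPI varied least of the 50 genes, with 7.64 and 7.60 in experiment 1 and 7.61 and 7.59 in experiment 2. CENPK had 8.72 and 8.53, then 8.64 and 8.78, and CENPM 14.10 and 14.05, then 14.17 and 14.19. CASC5, now named KNL1, the kinetochore scaffold for the BUB proteins, had 11.74 and 11.65, then 11.88 and 11.69. CENPE, a kinesin of chromosome alignment, had 0.038 and 0.11 in experiments 1 and 2. The 4 subunits of the NDC80 complex, which binds microtubule ends, did not all lie on the same side of 0. NDC80, NUF2 and SPC25 had differences of 0.092, 0.13 and 0.090, and SPC24 had -0.11, with 7.92 and 7.95 in experiment 1 and 7.73 and 7.92 in experiment 2.

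The 9 spindle and cytokinesis genes had a median treatment difference of 0.077, with 8 above 0 in both experiments. TPX2, which activates AURKA on spindle microtubules, had 12.88 and 12.76, then 12.92 and 12.78, and a difference of 0.13 (standard error 0.090). NUSAP1, ASPM, DLGAP5 and CEP55, proteins of spindle bundling, the spindle poles, kinetochore fibres and abscission, lay between 0.061 and 0.077. PRC1, which cross-links midzone microtubules, had 14.25 and 14.24, then 14.38 and 14.39, so that its arrays separated by experiment and not by treatment. The other members of this group were HMMR, ANLN and ECT2, given above.

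All 7 genes of chromosome structure had treatment differences above 0, from 0.023 to 0.11. TOP2A, the topoisomerase that untangles sister chromatids, had 0.11 in experiment 1 and -0.030 in experiment 2. The condensin genes NCAPG, NCAPH, SMC2 and SMC4 had 0.095, 0.023, 0.064 and 0.11. NCAPH had 6.87 and 6.84 in experiment 1 and 7.01 and 6.99 in experiment 2. CDCA5 (sororin), which stabilizes cohesin on chromatin, had 0.030, and CDCA2, which recruits a phosphatase to anaphase chromosomes, had 0.093.

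Between the experiments, 4 of the 50 genes were higher in experiment 2 at an unadjusted p below 0.05 and 0 were lower. Over all genes 5.38% were higher and 8.43% lower at this threshold, and over all tested probes 13.6% passed in either direction. None of the 50 passed Benjamini-Hochberg adjustment, which 0% of all genes did, and the smallest adjusted p from limma among them was 0.330. The 4 were INCENP, SPC25, DLGAP5 and CENPN, and a share of 4 in 50 for the higher direction is near that of all genes. The difference, experiment 2 minus experiment 1, was above 0 for 43 of the 50 genes, against 46.9% of all genes. Its median was 0.11, or 7.81%, against -0.012 over all tested genes. With control mimic the median was 0.14 and 45 genes were above 0 (50.2% of all genes), and with miR-511 mimic it was 0.099 and 39 were above 0 (43.3% of all genes). Both arrays of experiment 2 lay above both arrays of experiment 1 for 33 of the 50 genes (22.3% of all genes) and below them for SPC24 alone (27.2% of all genes).

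The study calls the experiments independent, and whatever else differed between them cannot be told apart from the experiment. Among tested probes between the lower and upper quartiles of brightness of these genes, the median difference between the experiments was -0.013. Of the 4 arrays, the control mimic array of experiment 1 was the lowest for 38 of the 50 genes (76.0%), which it was for 25.3% of all tested genes, and its median distance from the gene mean was -0.10. The miR-511 array of experiment 1 had -0.021, and the miR-511 and control arrays of experiment 2 had 0.065 and 0.053. The same control array also had the most probes well above background, 23647, against 22130 to 22949 on the others, and the part of this in the differences was not tested. Without it 0 of the 50 genes passed the unadjusted threshold between the experiments, beside 14.2% of all tested probes, and the median difference was 0.072. Without miR-511 mimic replicate 2 also 0 passed (10.2% of all probes), and without control mimic replicate 2 NCAPG alone (8.23% of all probes). With the treatment as a term in the fit only SPC25 passed (11.6% of all probes). Without that term the errors rest on 2 arrays per experiment, 1 of each treatment, so that they include differences between the treatments.

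**Figure D3:**
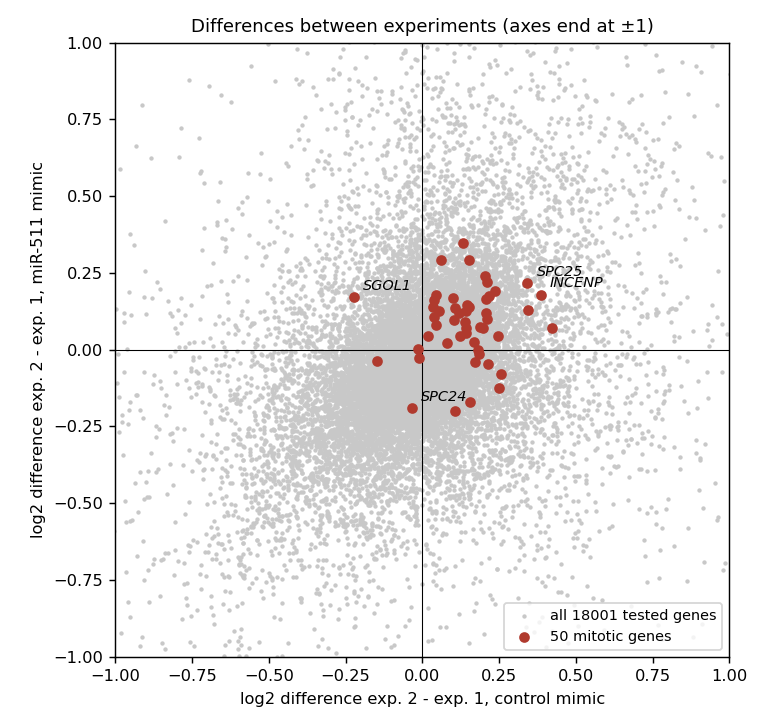
Log2 difference, experiment 2 minus experiment 1, with control mimic (horizontal axis) and with miR-511 mimic (vertical axis) for the 50 mitotic genes (red) and all 18001 tested genes (grey). Of the red points 45 lie right of 0 and 39 lie above 0, with INCENP and SPC25 toward the upper right and SPC24 below 0 on both axes. Axes end at 1 on either side, and 656 grey points lie outside.

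INCENP had 9.33 with miR-511 and 9.21 with control mimic in experiment 1, and 9.51 and 9.59 in experiment 2. The means were 9.27 ± 0.088 (SD, n = 2) and 9.55 ± 0.058 (SD, n = 2) in experiments 1 and 2, a difference of 0.28 (standard error 0.084, adjusted p = 0.330 from limma). Each of these SDs is between 1 miR-511 and 1 control array, so that it is no spread of replicates. SPC25, the NDC80 complex subunit, had 12.36 and 12.21 in experiment 1 and 12.58 and 12.55 in experiment 2. Its difference was 0.28 (standard error 0.086, adjusted p = 0.336 from limma). DLGAP5, a spindle protein of kinetochore fibres, had 11.66 and 11.61, then 11.90 and 11.82, a difference of 0.22 (standard error 0.074, adjusted p = 0.350 from limma). CENPN, which reads the CENPA nucleosome, had 12.48 and 12.51, then 12.77 and 12.66, a difference of 0.22 (standard error 0.078, adjusted p = 0.365 from limma). The other 2 CENPN probes did not show this: they had differences of -0.25 and -0.15 between the experiments, and the mean over all 3 probes was -0.057.

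PLK1, AURKB and NCAPG had larger differences between the experiments than DLGAP5 and CENPN. At the brightest probe of each gene these differences did not pass the threshold. PLK1 had 0.25 (standard error 0.11), with 0.071 with miR-511 and 0.42 with control mimic. The second PLK1 probe had 0.38 (standard error 0.12) and passed it (unadjusted p = 0.0309, adjusted p = 0.335 from limma), as did 13.6% of all tested probes in either direction. AURKB had 9.53 and 9.36 in experiment 1 and 9.66 and 9.70 in experiment 2, a difference of 0.24 (standard error 0.091). For NCAPG the values were 8.38 and 8.39, then 8.72 and 8.52, and the difference was also 0.24 (standard error 0.098). By role, the median difference between the experiments was 0.18 for the chromosomal passenger complex, 0.11 for the spindle and cytokinesis genes and for the chromosome structure genes, 0.10 for the checkpoint and anaphase genes and for the kinetochore genes, and 0.098 for the mitotic entry genes.

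Promoter stretches of the 4 genes past the unadjusted threshold between the experiments are shown, with the CHR and CCAAT matches that lie wholly inside them. These motifs are the known common elements of G2 and M phase genes. RefSeq promoters (GRCh38.p14, 250 bases before to 50 after the first listed start of a gene) were found for 39 of the 50 genes, 8 of which have several listed starts. The other 11 are AURKA, FOXM1, BIRC5, BUB3, TTK, UBE2C, CENPH, CENPM, CASC5, TPX2 and CDCA2. The letters TTTGAA and TTTAAA were taken as the CHR and CCAAT as the CCAAT box, each searched on both strands. Each line holds the 120 bases before the start, 5′ to 3′ on the strand of the gene, with whole matches in capitals. There ATTGG and TTCAAA are matches on the other strand. CHR matches outside these bases, or only partly within them, are not in capitals. Their first bases from the start were -247 and -3 for SPC25, -138 and +4 for DLGAP5 and +4 for CENPN. The stretches are chr11:62123891-62124010 on the plus strand for INCENP, chr2:168890431-168890550 on the minus strand for SPC25, chr14:55191586-55191705 on the minus strand for DLGAP5 and chr16:81007094-81007213 on the plus strand for CENPN.
INCENP: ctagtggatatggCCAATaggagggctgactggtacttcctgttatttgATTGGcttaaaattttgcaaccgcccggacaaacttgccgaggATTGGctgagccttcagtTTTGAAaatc
SPC25: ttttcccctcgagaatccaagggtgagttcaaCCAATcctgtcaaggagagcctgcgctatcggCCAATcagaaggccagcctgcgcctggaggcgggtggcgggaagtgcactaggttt
DLGAP5: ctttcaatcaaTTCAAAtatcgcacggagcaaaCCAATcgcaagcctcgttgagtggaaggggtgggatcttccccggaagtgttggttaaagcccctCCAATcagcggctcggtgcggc
CENPN: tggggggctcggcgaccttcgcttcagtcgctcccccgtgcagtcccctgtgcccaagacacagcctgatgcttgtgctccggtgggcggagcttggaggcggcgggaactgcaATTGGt

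A CHR match was present in 30 of the 39 promoters (76.9%), against 24.3% of the promoters of all 27305 genes in the table. A CCAAT match was present in 26 (66.7%), against 35.7%, and at least 2 CCAAT matches in 16 (41.0%), against 11.3%. Both motifs were found in 21 (53.8%), against 9.49%. In 18 promoters (46.2%) a CHR match began within the last 40 bases before the start, which was so for 4.11% of all promoters. Of the 47 CHR and 58 CCAAT matches in these promoters, 1 CHR match overlapped a CCAAT match and 2 pairs of CCAAT matches overlapped each other. CDC25B, CDC25C, CENPI and CDCA5 had no match of either motif in this window. The median difference between the experiments was 0.13 for the 30 genes with a CHR match and 0.063 for the 9 without one, which is a description with no test. These matches are letters in a window, and binding was not measured.

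For 8 of the genes the brightest probe was printed 10 times on each array, which shows the spread within an array. The SD of the spots was 0.022 to 0.16, with a median of 0.059 over these genes and 0.073 over all 738 tested probes of this kind. Spots on 1 array are no replicates of the treatment, and their error covers the reading of the array only. CASC5 had a ratio of 0.093 (spot standard error 0.021) in experiment 1 and 0.20 (spot standard error 0.024) in experiment 2. CENPH had 0.19 (spot standard error 0.039) and 0.0017 (spot standard error 0.028). INCENP had 0.12 (spot standard error 0.056) and -0.081 (spot standard error 0.020), and TOP2A 0.11 (spot standard error 0.024) and -0.030 (spot standard error 0.022). CEP55 had 0.077 in both experiments, with spot standard errors of 0.033 and 0.027. The ratios of BIRC5, CDCA5 and CENPE lay between -0.028 and 0.11.

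**Figure D4:**
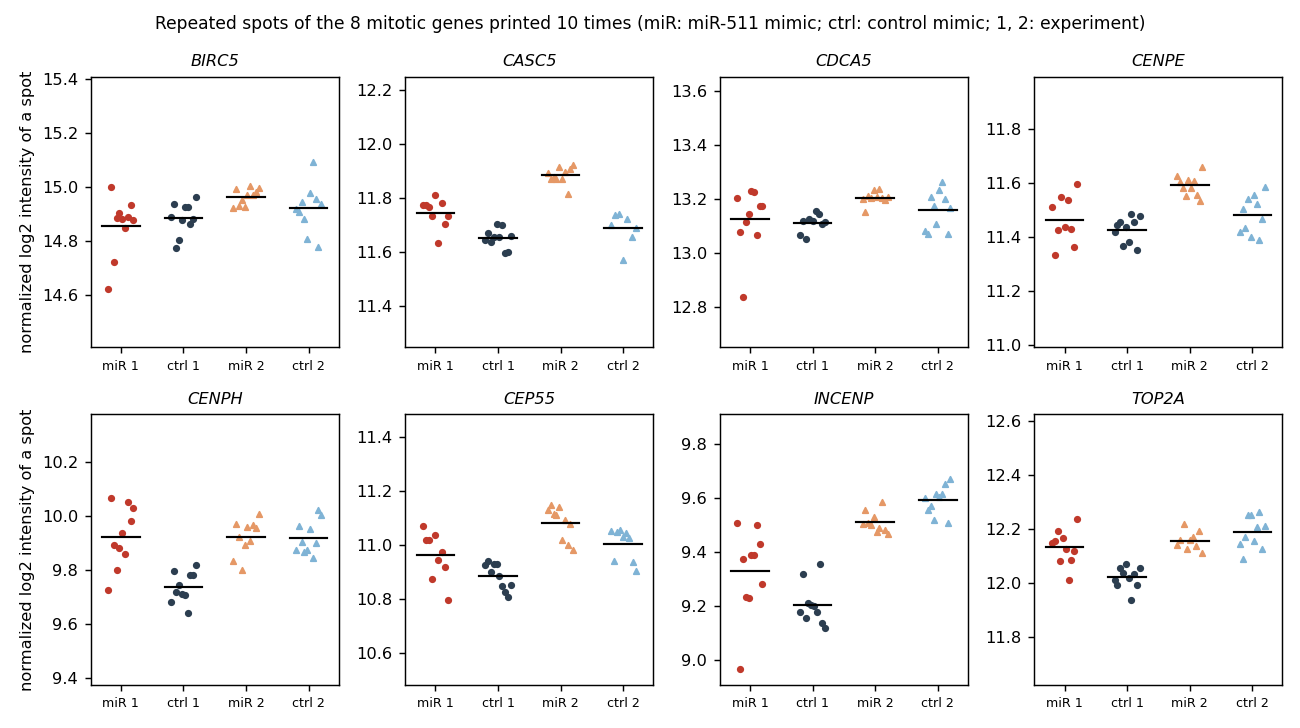
Normalized log2 intensity of every spot (points) of the 8 mitotic genes whose brightest probe was printed 10 times, with the mean per array (black line). The arrays are miR-511 mimic (miR) and control mimic (ctrl) of experiments 1 and 2, and each vertical axis spans 1 log2 unit around the mean of its gene. Most spots of INCENP lie lower in experiment 1 than in experiment 2, and CENPH has its lowest mean on the control array of experiment 1.

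Of the 12 genes with several probes, 9 had treatment differences that lay within 0.2 of each other and 6 had differences of opposite sign, BUB3, CENPF, CEP55, PLK1, SGOL1 and SMC4. Between the experiments the signs were opposite for CENPF, CENPI, CENPN, SGOL1 and SMC4. SGOL1 had -0.027 between the experiments at its brightest probe and 0.21 (standard error 0.067) at the other. The latter passed the unadjusted threshold (unadjusted p = 0.0338, adjusted p = 0.341 from limma). CEP55, a midbody protein that recruits the abscission machinery, had the widest gap. Its probe printed once, on chromosome 10 of hg19 from 95279478 to 95279537, had 6.94 with miR-511 and 8.56 with control mimic in experiment 1 and 8.80 and 8.80 in experiment 2, a ratio of -1.62 in experiment 1 and 0.0026 in experiment 2. The other probe, printed 10 times from 95288754 to 95288813, had 10.96 and 10.89, then 11.08 and 11.01. The low spot was not marked by the scanner software, had 63 pixels against 65 to 66 on the other arrays and stood well above background. Without CEP55 the widest gap between treatment differences was 0.36, for CENPF. Where the probes lie in the transcripts was not analysed here.

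**Figure D5:**
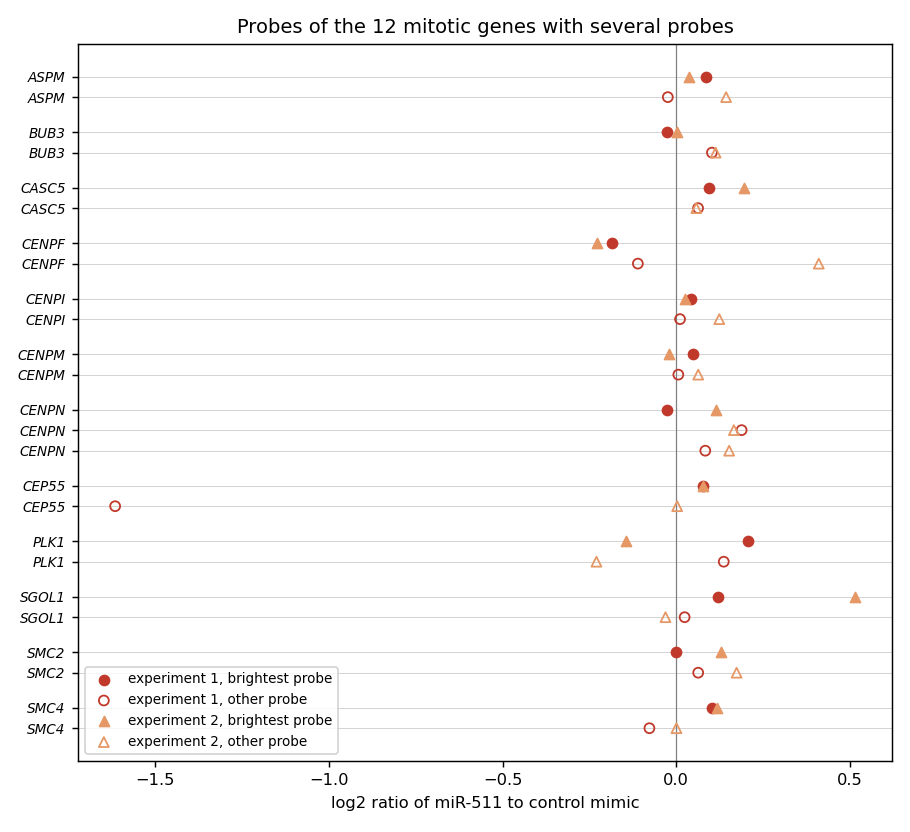
Log2 ratio of miR-511 to control mimic (horizontal axis) for each probe of the 12 mitotic genes with several probes, 1 row per probe. Circles are experiment 1, triangles experiment 2, filled the brightest probe of the gene and open the others. Most points lie close to 0, and the CEP55 probe printed once has -1.62 in experiment 1 only.

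Beside these 50, 63 of 65 other genes of mitosis were tested, among them further kinetochore proteins, subunits of the anaphase promoting complex, cohesin and condensin. Between the treatments 0 of the 63 passed the unadjusted threshold (2.12% of all genes), and their median difference was 0.026. The ratio was above 0 for 45 of them in experiment 1 (58.4% of all genes) and for 25 in experiment 2 (49.6% of all genes). The median ratios were 0.077 and -0.028. Between the experiments 6 were higher in experiment 2 (5.38% of all genes) and 0 were lower (8.43% of all genes), with a median of 0.057. HJURP, the chaperone that deposits CENPA, had 13.08 and 13.01 in experiment 1 and 13.24 and 13.29 in experiment 2, a difference of 0.22 (standard error 0.073). ZWINT, which binds KNL1 at the kinetochore, had 0.24 (standard error 0.072), SKA2 of the microtubule-binding SKA complex 0.24 (standard error 0.066) and CENPP and CENPW of the inner kinetochore 0.25 (standard error 0.074) and 0.35 (standard error 0.13). OIP5, which helps to load CENPA, had 0.37 (standard error 0.13). The adjusted p of these 6 lay between 0.309 and 0.368 in limma. Of 37 genes of G1/S and DNA replication 35 were tested, with 0 past the threshold between the treatments and 3 higher in experiment 2, beside the same shares of all genes, and with medians of 0.026 and 0.13. Of these 35, 30 had a treatment ratio above 0 in experiment 1 and 15 in experiment 2, beside 58.4% and 49.6% of all genes. The median ratios were 0.075 and -0.013. The control array of experiment 1 was the lowest for 55.6% of the other mitotic genes and for 68.6% of the G1/S genes.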

How the data were processed

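Per the file headers, the authors' scanner files hold the processed intensity of each spot, made with Agilent Feature Extraction: background-subtracted, detrended and not normalized between arrays. The submitters' processing notes name version 10.5.1.1 of that software, and the file headers name a different version. Their quantile normalized log2 values, deposited as a table, were an alternative. R 4.3.3 and limma 3.58.1 were used. The log2 of the processed intensity of 43118 non-control spots was taken, 232 to 301 spots per array marked as outliers were left out (for the mitotic genes 9 over all 4 arrays, of 135 spots on each), arrays were quantile normalized and spots of one probe averaged. Tested were 22638 of 34127 probes, those that both arrays of 1 or both treatments showed well above background (over 50% of the spots of a repeated probe), with lmFit and eBayes and no further term. P-values are two-sided, adjusted over these probes by Benjamini-Hochberg. The number of arrays limits the precision.

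The labels give the experiment of each array, so the experiment number pairs arrays. The deviations of same-numbered arrays from the mean of their treatment correlated at 0.271 over tested probes and at 0.211 over the 63 mitotic probes. The block for the experiment was an alternative, as were 75th percentile scaling, normexp (offset 50), no filter or a stricter filter, keeping marked spots, an intensity trend, a plain equal-variance t-test of each averaged probe (the methods name a t-test only over identical replicate probes), the mean of all probes and leaving out each array. The members and gene lists were chosen with earlier results of these data known. Named are all 50 members, with every array for those past the unadjusted threshold, the 5 largest differences per contrast and the 5 highest and 5 lowest mean values. Probe coordinates are hg19 as in the files. In RefSeq 48 of 50 names matched and 2 were renamed. The fit was tested on simulated data for the treatment contrast over 22638 probes. After adjustment it recovered 100 of 100 probes with a log2 change of 3 and 93 of 100 with one of 1.5. Both changes are far larger than the largest treatment difference of the mitotic genes, 0.32. They give no recovery rate for changes of that size. Some marker genes of other cell types are not reported here.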

Additional observations from a re-analysis of the deposited data

How the results depend on the processing

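The median treatment difference of 0.062 kept its sign, and no mitotic gene passed adjustment, in every alternative that used all 4 arrays. With the experiment as a replicate block 0 genes passed the unadjusted threshold between the treatments and the median stayed at 0.062. The treatment count of 0 became 3 after normexp (CASC5, SGOL1 and TPX2, with SGOL1 at 0.33) and 2 with a plain t-test of each averaged probe (SMC4 and TPX2), and stayed 0 with each array left out. The count of 4 genes between the experiments became 11 with an intensity trend, 7 after normexp, 7 with the plain t-test and 1 with treatment as a term, where over all probes 3074 became 3312, 3174, 2561 and 2615. The 4 genes were among the 11 and among the 7 after normexp, and DLGAP5 alone of them passed by the plain t-test. With each array left out it lay between 0 and 3, the median difference between the experiments between 0.072 and 0.16, the median treatment difference between -0.015 and 0.14, and the number of genes above 0 between 19 and 48 for the treatment and between 36 and 48 for the experiments. CENPN turned to -0.057 between the experiments with the mean of its probes. With the mean of all probes of a gene the count stayed at 4, with PLK1 (0.31) in place of CENPN, beside 13.7% of all genes. The cause of these changes was not tested. After leaving out an array 1 group has 1 array, which is assumed to vary like the other group. Over all probes, the count past the unadjusted threshold between the treatments, 498, was 265 after normexp, 285 with an intensity trend, 708 with the plain t-test, 894 with the replicate block, 1029 without a filter and 516 to 1379 with an array left out. All 63 probes were well above background on all arrays, and the number of arrays limits the changes that could be detected.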
